A study of Mus musculus with 6 samples.

Results

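The pentose phosphate pathway and the other cytosolic and mitochondrial sources of NADPH were followed through 10 genes in mouse bone marrow-derived macrophages: G6pdx, Pgls and Pgd of the oxidative branch, Rpia, Rpe, Tkt and Taldo1 of the non-oxidative branch, and Me1, Idh1 and Idh2 outside the pathway. They were chosen for their place in these routes, with earlier results of these data known, were taken by gene symbol, and all 10 were found among the 40213 genes of the deposited counts. The cells came from C57BL/6 bone marrow grown for 4 days in 25 ng/ml macrophage colony-stimulating factor and 10% serum. In 3 samples they then received 50 µg of polystyrene micro- and nanoplastics (MNP; the labels give neither particle size nor culture volume) for 24 h, and 3 control samples were untreated, so both groups share strain, growth factor and serum. Total RNA was sequenced, and nothing in the labels tells whether samples of a group came from separate animals or cultures. The p-values therefore cover the spread among these samples alone, and that spread may be technical.

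The pentose phosphate pathway oxidizes glucose 6-phosphate. Its oxidative branch yields NADPH and a pentose phosphate, and its reversible non-oxidative branch converts pentose phosphates into sugars that re-enter glycolysis or run the other way to make ribose. NADPH is the electron donor with which glutathione reductase and thioredoxin reductase restore their substrates, with which the phagocyte oxidase makes superoxide, and with which fatty acids and sterols are built. Malic enzyme and the NADP-dependent isocitrate dehydrogenases supply NADPH by other routes, and several of these genes are known targets of NRF2, the transcription factor that responds to electrophilic and oxidative stress by binding the antioxidant response element (ARE).

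The libraries held 21283713 to 22700499 counts in MNP samples and 20262859 to 23042146 in control samples. Values below are scaled CPM, that is, each count as a share of its library after TMM scaling, so that 1 count was worth 0.0451 to 0.0483 CPM in MNP and 0.0424 to 0.0479 CPM in control libraries. MNP sample 1 stood apart on the second principal component (17.8% of the variance). It held more of the transcript Gm26917 than any other library, at 1.02% of all counts. Control sample 1 stood apart in the number of genes detected, 24062, with 20222 to 20935 in the other control samples and 18240 to 18672 in MNP samples, so fewer genes were detected in every MNP library than in any control library. Mitochondrial genes took 3.24% to 3.73% of counts in MNP and 2.19% to 3.35% in control samples, with overlap. The part of these library differences in the results below was not tested, beyond the omission of each library. Of 8 macrophage markers, all were detected, among them Csf1r with 1337 ± 39.2 CPM in MNP and 1400 ± 74.2 CPM in control samples, and 4 were lower in MNP samples. Of 8 neutrophil markers 7 were tested and 3 were lower, with a summed level of 114 to 132 CPM in MNP and 162 to 239 CPM in control samples. Also lower were 1 of 4 tested dendritic cell markers (Siglech), the 1 tested T cell marker (Cd4), 1 of 4 megakaryocyte markers (Itga2b) and 1 of 2 endothelial markers (Kdr). Cd4 had 3.94 ± 0.705 CPM in MNP and 17.1 ± 2.32 CPM in control samples. Over all tested genes 8.35% were lower. No tested marker of another cell type passed as higher. Ly6g, a defining neutrophil marker, had 0.0319 ± 0.0552 CPM in MNP and 0.0145 ± 0.0251 CPM in control samples, and Cd3e of T cells and Ncr1 of natural killer cells were at 0 in every library. The part of these other cells in the results below was not tested, and in bulk RNA a change in the number of cells cannot be told apart from a change in RNA per cell.

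After MNP treatment, 5 of the 10 genes rose and none fell: G6pdx and Pgd, the pair of NADPH-making dehydrogenases of the oxidative branch, Tkt and Taldo1, the pair of carbon-transfer enzymes of the non-oxidative branch, and Me1, the cytosolic malic enzyme. Me1 was 5.25-fold, Taldo1 2.53-fold, Pgd 2.25-fold, G6pdx 1.78-fold and Tkt 1.38-fold higher. Pgls, Rpia, Rpe, Idh1 and Idh2 did not pass the test. Calls rest on edgeR's quasi-likelihood test at 0.05 after Benjamini-Hochberg adjustment over all 12893 genes tested. That test called 17.5% of all genes, 9.11% higher (1174 genes) and 8.35% lower (1076 genes), or 757 higher and 1941 lower when libraries were scaled by their totals alone. At an unadjusted p under 0.05 the same 5 members passed. All 10 genes were tested, and their median log2 fold change was 0.26, against -0.01 over all genes tested. The libraries of the 2 groups did not overlap for the 5 genes that rose, each with every MNP value above every control value, a pattern that 17.2% of tested genes shared. MNP values lay wholly below control values for 17.4% of tested genes and for 0 members, and the groups were apart in either direction for 34.6% of tested genes. The other 5 members overlapped. The 5 calls held in each of the 16 alternatives run, including the omission of each library.

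**Figure D1:**
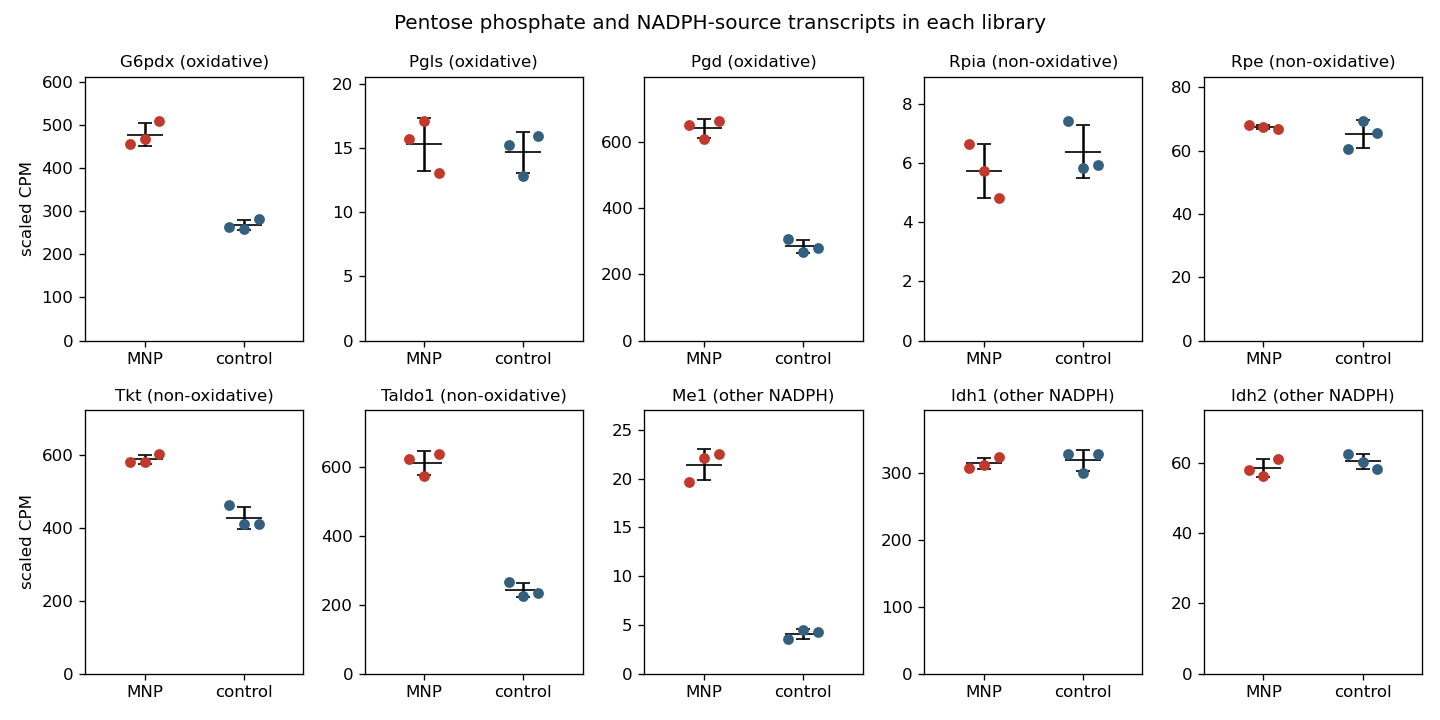
Scaled CPM of the 10 genes in each library (points; MNP left, control right), with the mean and SD of 3 samples (black), each panel on its own linear axis from 0. The MNP points lie above all control points for G6pdx, Pgd, Tkt, Taldo1 and Me1 and overlap the control points for Pgls, Rpia, Rpe, Idh1 and Idh2.

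**Figure D2:**
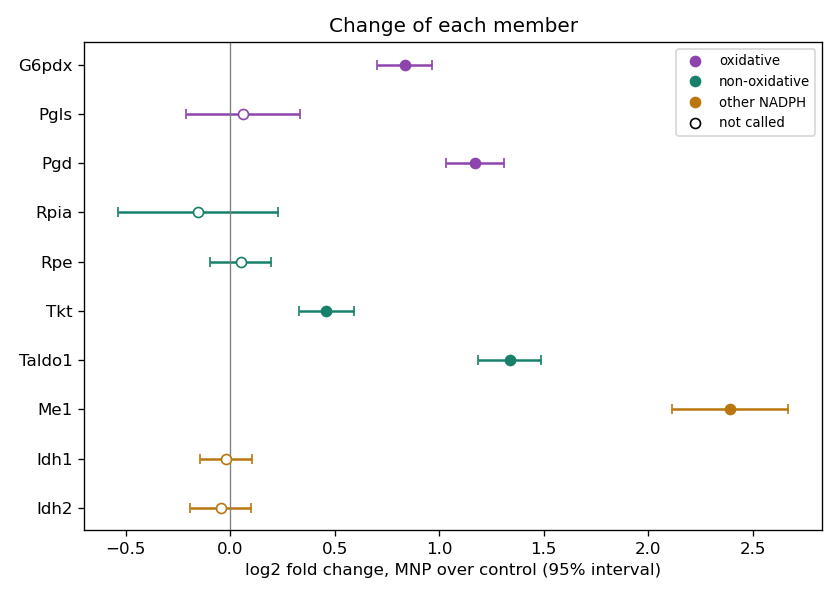
Log2 fold change of each gene, MNP over control, with its 95% interval from edgeR, coloured by role; open points did not pass the test. The 5 filled points run from 0.46 (Tkt) to 2.39 (Me1), and the 5 open points have intervals that include 0.

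Windows around start sites are shown for the 3 of the 10 genes in which the letters of the ARE core were found. NRF2 binds that element, and its use in these cells was not tested. RefSeq (GRCm38.p6) gives 13 promoter windows for the 10 genes, each from 250 bases before to 50 bases after a start site. The letters TGACNNNGC, searched on both strands, occurred in 1 window each of Me1, G6pdx and Pgd, and in none of the windows of Taldo1, Tkt, Pgls, Rpia, Rpe, Idh1 and Idh2. Over all 32851 windows 12.4% held them, and of 27025 genes 14.0% had a window that did. The windows are printed 5′ to 3′ on the strand of the gene, with the matched letters in capitals.
Me1, chr9:86695865-86696164, minus strand: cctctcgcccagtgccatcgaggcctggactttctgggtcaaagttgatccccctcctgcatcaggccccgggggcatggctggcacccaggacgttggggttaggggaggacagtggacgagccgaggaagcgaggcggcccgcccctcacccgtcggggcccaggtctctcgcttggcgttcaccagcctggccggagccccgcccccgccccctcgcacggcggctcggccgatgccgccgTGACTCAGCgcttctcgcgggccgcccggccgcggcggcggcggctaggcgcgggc
G6pdx, chrX:74428831-74429130, minus strand: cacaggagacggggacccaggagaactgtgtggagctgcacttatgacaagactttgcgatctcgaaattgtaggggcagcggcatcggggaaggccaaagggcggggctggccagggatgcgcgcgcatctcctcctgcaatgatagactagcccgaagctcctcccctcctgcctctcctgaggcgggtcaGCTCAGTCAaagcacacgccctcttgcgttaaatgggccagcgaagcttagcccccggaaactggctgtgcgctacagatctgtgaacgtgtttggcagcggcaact
Pgd, chr4:149166033-149166332, minus strand: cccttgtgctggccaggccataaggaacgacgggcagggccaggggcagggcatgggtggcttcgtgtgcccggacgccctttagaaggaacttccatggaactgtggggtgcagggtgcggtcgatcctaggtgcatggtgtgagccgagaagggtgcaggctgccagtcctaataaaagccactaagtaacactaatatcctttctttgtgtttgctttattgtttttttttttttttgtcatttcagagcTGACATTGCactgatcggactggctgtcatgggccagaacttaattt
In Me1 the match TGACTCAGC began at position -6 from the start site and crossed it, and its first letters also spell the AP-1 element TGANTCA, which 7.81% of all windows held. In G6pdx the match lay on the opposite strand, where it reads TGACTGAGC, with its leftmost base at position -57. In Pgd the match TGACATTGC began at position 4 in the window of its downstream start site, so it lay after that site, in transcribed sequence. That start site comes directly after a run of t and the letters gtcatttcag, the usual form of an intron's end. The match may therefore lie in an internal exon, and whether that window acts as a promoter was not tested. The window of the upstream start site of Pgd held no match. Of the 5 genes that rose, Me1, G6pdx and Pgd had a match in these windows, and Taldo1 and Tkt had none. The genes were chosen with earlier results of these data known. Whether a match had a part in any increase was not tested. A match is a string of letters only, and binding was not measured.

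In the oxidative branch, the 2 dehydrogenases rose and the lactonase between them did not pass. G6pdx, on the X chromosome, encodes glucose 6-phosphate dehydrogenase, which commits glucose 6-phosphate to the pathway and makes its first NADPH. It had 457, 468 and 509 CPM in MNP samples 1 to 3, against 265, 259 and 281 CPM in control samples 1 to 3. The groups were well apart, and the log2 fold change was 0.83 ± 0.06 (SE, edgeR adjusted p = 5.57e-07). The deposited counts of G6pdx and of Ikbkg, which overlaps its exons on the opposite strand, cannot be separated where the strand setting is not given. Ikbkg, a subunit of the NF-kB activating kinase complex, was also higher, with 90.1 ± 0.647 CPM in MNP and 65.3 ± 3.09 CPM in control samples (SD, n = 3 each), a difference of 24.8 CPM, against 210 CPM for G6pdx. The intronless copy G6pd2 had at most 10 counts in any library.

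Pgd encodes 6-phosphogluconate dehydrogenase, which makes the second NADPH of the branch and releases ribulose 5-phosphate. It had 652, 610 and 664 CPM in MNP samples, against 308, 268 and 279 CPM in control samples. Each MNP value lay far above each control value (log2 fold change 1.17 ± 0.06, edgeR adjusted p = 4.30e-08). Pgls encodes the lactonase that hydrolyses 6-phosphogluconolactone, a step that also runs without enzyme. It had 15.7, 17.1 and 13.0 CPM in MNP samples and 15.2, 12.8 and 15.9 CPM in control samples, with overlap of the groups. Its log2 fold change was 0.06 with a 95% interval of -0.21 to 0.33 (edgeR adjusted p = 0.787), so an increase the size of that of G6pdx or Pgd lies outside the interval.

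In the non-oxidative branch, the carbon-transfer enzymes rose and the enzymes that interconvert pentose phosphates did not pass. Taldo1, transaldolase, had 623, 572 and 637 CPM in MNP samples, against 265, 226 and 235 CPM in control samples. This was the largest increase within the pathway proper (log2 fold change 1.34 ± 0.07, edgeR adjusted p = 2.93e-08). Tkt, the thiamine-dependent transketolase that works with it, had 582, 580 and 602 CPM in MNP samples, against 462, 411 and 410 CPM in control samples. It rose less than Taldo1 (log2 fold change 0.46 ± 0.06, edgeR adjusted p = 0.000123), and control sample 1 was its highest control. Of the transketolase-like genes, Tktl1 had no count in any library and Tktl2 had means of 0.0310 CPM in MNP and 0.0160 CPM in control samples.

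Rpe and Rpia convert ribulose 5-phosphate, the product of the oxidative branch, into xylulose 5-phosphate and ribose 5-phosphate. Rpe, the epimerase, had 68.0, 67.5 and 67.0 CPM in MNP samples and 60.6, 69.3 and 65.6 CPM in control samples, so that the MNP values lay inside the control range. Rpia, the isomerase, was the weakest member of the pathway, with 6.67, 5.73 and 4.83 CPM in MNP samples and 7.43, 5.83 and 5.94 CPM in control samples. The log2 fold change was 0.05 (95% interval -0.10 to 0.20, edgeR adjusted p = 0.675) for Rpe and -0.15 (-0.54 to 0.23, edgeR adjusted p = 0.607) for Rpia. The interval of Rpia is the widest of the 10 genes, and its counts were 101 to 138 in MNP and 134 to 155 in control libraries. Rpe shares exon sequence with Kansl1l on the opposite strand, which did not pass either (42.9 ± 0.839 CPM in MNP and 46.3 ± 2.75 CPM in control samples).

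Among the NADPH sources outside the pathway, Me1 rose and the isocitrate dehydrogenases did not pass. Me1 oxidizes cytosolic malate to pyruvate. It had 19.7, 22.1 and 22.5 CPM in MNP samples, against 3.50, 4.48 and 4.24 CPM in control samples, from 407 to 491 counts in MNP and 73 to 103 counts in control libraries. MNP and control values were far apart (log2 fold change 2.39 ± 0.13, edgeR adjusted p = 3.82e-08). Idh1, the cytosolic and peroxisomal enzyme, had 308, 312 and 325 CPM in MNP samples and 328, 300 and 329 CPM in control samples. Idh2, its mitochondrial counterpart, had 58.0, 56.3 and 61.1 CPM in MNP samples and 62.4, 60.3 and 58.3 CPM in control samples. Both overlapped between groups, with log2 fold changes of -0.02 (95% interval -0.14 to 0.10, edgeR adjusted p = 0.851) and -0.05 (-0.19 to 0.10, edgeR adjusted p = 0.699), intervals that leave out the change of each of the 5 genes that rose.

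Fold and amount ranked the genes differently. Levels between genes were compared as scaled CPM per kilobase of exon. Lengths were the union of exons of protein-coding transcripts in GENCODE M21, and the order depends on them. Without division by length, Tkt had the highest mean in control samples (428 CPM, against 242 CPM for Taldo1). Pgd had the highest mean in MNP samples (642 CPM, against 611 CPM for Taldo1, with overlap). Me1, with the largest fold change, had 5.94 ± 0.428 CPM per kilobase in MNP and 1.13 ± 0.142 in control samples, a difference of 4.81. Taldo1 had 448 ± 25.0 in MNP and 177 ± 15.1 in control samples, a difference of 271, and Pgd had 290 ± 12.8 in MNP and 128 ± 9.23 in control samples, a difference of 161. In MNP samples the order from high to low was Taldo1, Pgd, Tkt, G6pdx, Idh1, Idh2, Rpe, Pgls, Me1 and Rpia, and only Tkt and G6pdx (182 ± 3.82 and 180 ± 10.4) overlapped as neighbours. In control samples it was Taldo1, Tkt, Pgd, Idh1, G6pdx, Idh2, Rpe, Pgls, Rpia and Me1, and only Tkt and Pgd (133 ± 9.18 and 128 ± 9.23) overlapped. Idh1 thus stood above G6pdx in control samples and below it in MNP samples, with 114 ± 3.13 against 180 ± 10.4 CPM per kilobase in MNP samples and 115 ± 5.92 against 101 ± 4.44 in control samples.

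Summed per kilobase, the 3 genes of the oxidative branch came to 482 ± 18.6 CPM in MNP and 241 ± 11.4 CPM in control samples, a ratio of 2.00. The 4 genes of the non-oxidative branch came to 658 ± 27.6 CPM in MNP and 337 ± 23.1 CPM in control samples, a ratio of 1.95. For Me1, Idh1 and Idh2 together the sums were 153 ± 4.67 CPM in MNP and 151 ± 5.94 CPM in control samples, a ratio of 1.01. Of the summed level of all 10 genes, Taldo1 made up 34.6% ± 0.79 in MNP and 24.3% ± 0.83 in control samples, and G6pdx 13.9% ± 0.54 in MNP and 13.9% ± 0.85 in control samples. These sums and shares depend on the exon lengths used, are descriptions of the chosen genes and were not tested.

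**Figure D3:**
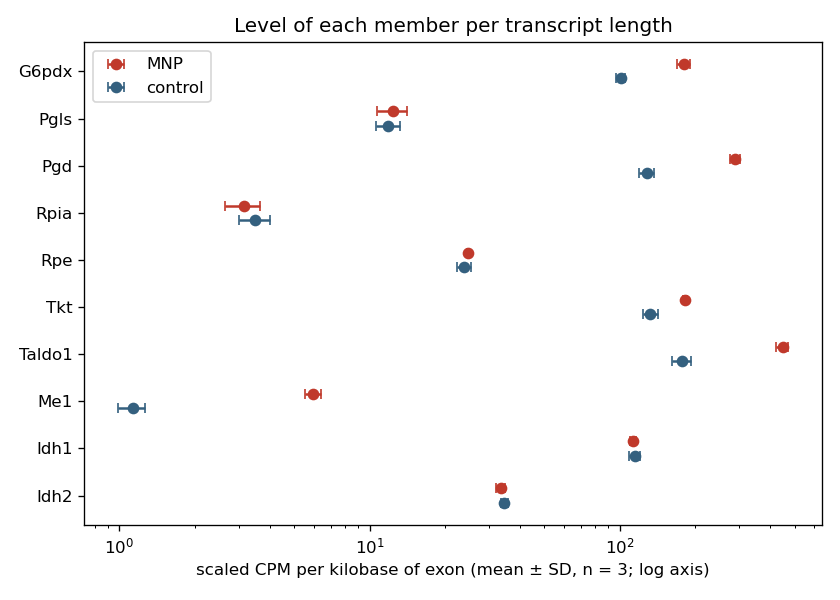
Scaled CPM per kilobase of exon (log axis; mean ± SD of 3 samples), MNP drawn above control for each gene. Taldo1 is the highest in both groups, at 448 in MNP and 177 in control samples, and Me1 the lowest of the genes that rose, at 5.94 in MNP and 1.13 in control samples.

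Whether 2 genes moved unequally was asked of 6 pairs through the ratio of their counts within each library, which does not depend on library scaling. The ratio of Taldo1 to Tkt was 1.07, 0.986 and 1.06 in MNP libraries, against 0.574, 0.550 and 0.573 in control libraries, a log2 difference of 0.88. The ratio of G6pdx to Pgd was 0.701, 0.767 and 0.767 in MNP libraries, against 0.860, 0.964 and 1.01 in control libraries, a log2 difference of -0.34. In these 2 pairs, and for G6pdx to Tkt (0.37) and Me1 to G6pdx (1.57), the groups did not overlap, so each exact two-sided permutation test gave p = 0.10, the smallest that 3 against 3 samples allow (adjusted p = 0.15 over the 6 pairs). The ratio of Idh1 to Idh2 was 5.31, 5.54 and 5.31 in MNP libraries and 5.26, 4.98 and 5.64 in control libraries, with overlap (log2 difference 0.03, exact p = 0.70). Rpia to Rpe differed by -0.21 with overlap (exact p = 0.50).

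Genes around the pathway were read from 5 further lists. Over all genes tested, 9.11% were called higher and 8.35% lower, and no list was tested as a set against these shares. Of 11 tested genes next to the pathway, 3 rose and 0 fell (median log2 fold change 0.14). H6pd, the enzyme of the endoplasmic reticulum that carries out the first steps of the pathway there, had 60.3 ± 4.07 CPM in MNP and 37.3 ± 3.83 CPM in control samples (1.62-fold, edgeR adjusted p = 8.72e-05). Pgm1, a phosphoglucomutase linking glycogen to glucose 6-phosphate, was 1.31-fold higher, and Tigar, a phosphatase that lowers glycolytic flux, 1.26-fold higher. The ribose-using synthetase genes Prps1 and Prps2 did not pass, with log2 fold changes of 0.10 and 0.08. The call of Tigar (edgeR adjusted p = 0.0425) was lost in 10 of 16 alternatives, among them DESeq2 (adjusted p = 0.0622), limma-voom (0.0509) and the omission of MNP sample 1 (0.0695), MNP sample 2 (0.164), MNP sample 3 (0.0975), control sample 2 (0.0850) or control sample 3 (0.130).

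Of 9 tested genes listed as other sources of NADPH and NADP, 2 rose and 1 fell (median log2 fold change 0.02). Several of these enzymes can also use NAD, and which cofactor they used here was not tested. Mthfd2, a mitochondrial folate dehydrogenase, had 38.2 ± 2.29 CPM in MNP and 23.4 ± 1.39 CPM in control samples (1.63-fold, edgeR adjusted p = 5.76e-05). Nadk, the cytosolic kinase that makes NADP from NAD, fell to 167 ± 4.04 CPM in MNP samples, against 213 ± 11.8 CPM in control samples (log2 fold change -0.35 ± 0.06, edgeR adjusted p = 0.000799). Glud1, glutamate dehydrogenase, was 1.15-fold higher, a call lost without MNP sample 2 (edgeR adjusted p = 0.118), MNP sample 3 (0.133), control sample 1 (0.0685) or control sample 2 (0.0810), and with libraries scaled by their totals alone (0.185). Me2, a mitochondrial malic enzyme, did not pass, with 46.0 ± 1.43 CPM in MNP and 49.0 ± 1.11 CPM in control samples. The other mitochondrial malic enzyme, Me3, was too low to be tested (means of 0.113 CPM in MNP and 0.400 CPM in control samples). The transhydrogenase Nnt did not pass either (52.7 ± 2.12 CPM in MNP and 61.0 ± 6.08 CPM in control samples).

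Of 10 isocitrate and citrate enzymes, 3 rose and 0 fell (median log2 fold change 0.16). They were Slc25a1, the mitochondrial citrate exporter (1.29-fold), Idh3a, the catalytic subunit of the NAD-dependent isocitrate dehydrogenase (1.26-fold), and citrate synthase Cs (1.15-fold). The calls of Idh3a and Cs were lost without MNP sample 2 (edgeR adjusted p = 0.0829 and 0.0780) or control sample 2 (0.0630 and 0.0501), and that of Idh3a also without MNP sample 3 (0.0939). With libraries scaled by their totals alone, 1 gene of the list was higher, and the calls of Idh3a (edgeR adjusted p = 0.0689) and Cs (log2 fold change 0.11, edgeR adjusted p = 0.142) were lost.

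Of 16 tested genes that supply glucose 6-phosphate or draw it into glycolysis, 4 rose and 1 fell (median log2 fold change 0.07). The glucose transporter Slc2a1 was 1.29-fold higher, the isomerase Gpi1 1.18-fold higher and G6pc3, a glucose 6-phosphatase, 1.39-fold higher. Pfkp, a phosphofructokinase named after its value was seen, was 1.14-fold higher (edgeR adjusted p = 0.0474). Its call was lost with upper-quartile scaling or the stricter filter, each of which left 3 genes of the list higher. Pfkfb3, which makes the activator of phosphofructokinase, fell to 47.4 ± 0.519 CPM in MNP samples, against 61.7 ± 1.70 CPM in control samples (log2 fold change -0.38 ± 0.07, edgeR adjusted p = 0.00122). The hexokinases, which make glucose 6-phosphate, did not pass, with log2 fold changes of 0.07 for Hk1, -0.03 for Hk2 and 0.13 for Hk3. The increase count was 2 without any one of MNP samples 1, 2 and 3 or control samples 2 and 3. In each of these 5 cases the calls of Pfkp and G6pc3 were lost. For G6pc3 the edgeR adjusted p was 0.0340 in the main fit and 0.0679 to 0.10 in these cases. With libraries scaled by their totals alone, 1 gene of the list was higher, and the calls of Gpi1 (edgeR adjusted p = 0.0529), G6pc3 (0.0737) and Pfkp were lost.

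Of 24 tested reductases and synthases that spend NADPH, 13 rose and 1 fell (median log2 fold change 0.40). Ptgr1, which reduces alkenals, had 97.0 ± 4.99 CPM in MNP and 29.9 ± 1.61 CPM in control samples (3.24-fold, edgeR adjusted p = 4.95e-09). The largest fold changes of the list, named after their values were seen, were those of Nqo1 (9.11-fold) and Cbr3 (3.53-fold). Blvrb, a flavin and biliverdin reductase, was 2.51-fold, glutathione reductase Gsr 2.44-fold and the cytosolic thioredoxin reductase Txnrd1 2.09-fold higher. Its mitochondrial relative Txnrd2 did not pass (log2 fold change -0.01, 95% interval -0.34 to 0.32). The gene that fell, named after its value was seen, was Cybb, the catalytic subunit of the phagocyte oxidase, with 1632 ± 72.7 CPM in MNP and 2158 ± 93.0 CPM in control samples (log2 fold change -0.40 ± 0.06, edgeR adjusted p = 0.0003).

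**Figure D4:**
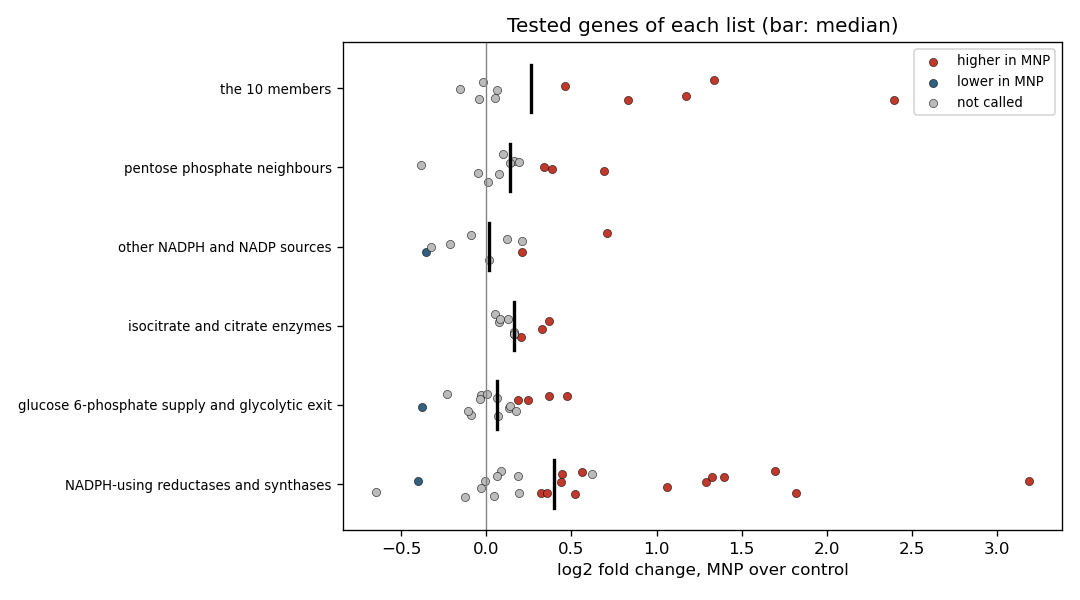
Log2 fold change, MNP over control, of the tested genes of each list (points; red higher, blue lower and grey not called) with the list's median (bar). The medians are 0.26 for the 10 members, 0.14, 0.02, 0.16 and 0.07 for the next 4 lists and 0.40 for genes that use NADPH.

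Over the 6 libraries, the genes whose log2 CPM followed that of G6pdx most closely, among 9453 genes outside the lists with a mean of at least 5 CPM, were Ednrb, Lipa and Psmd1, each with Pearson's r of 1.00 to 2 decimals. Of these genes, 411 had r above 0.95, and all 6 points share the split into 2 groups, so the likeness is a description only.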

How the data were processed

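RNA was measured in 3 MNP and 3 control libraries made from total RNA with the CORALL RNA-seq V2 kit. The authors deposited raw whole-number counts by gene symbol for each library separately. The submitters' processing notes list STAR, Salmon, fastp and GATK and the GRCm39 build but give neither versions nor the role of each tool. Annotation, strand setting, handling of molecular identifiers and rounding of Salmon estimates are not stated in the labels. Groups and replicate numbers came from the titles. Pairs of replicates differed beyond sampling noise (chi-square per degree of freedom 6.65 to 17.6).

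The test was that of edgeR 4.0.16 under R 4.3.3 (TMM factors, filterByExpr defaults, quasi-likelihood F test, MNP over control, Benjamini-Hochberg over 12893 genes, called under 0.05). Standard errors were derived from the F statistic, and 95% intervals from these and the total degrees of freedom. Exon lengths and overlaps came from GENCODE M21 and promoters from RefSeq, both of an older build (GRCm38) matched by symbol. No coordinate was used with the deposited counts. On simulated counts for this comparison (12720 genes passing the filter, 200 changed), 68% of 1.5-fold and 90% of 2-fold changes were recovered, and 9.60% of calls were false.

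The members, the lists and the tests were chosen with earlier results of these data known. Named genes are all members and, of each other list, up to 4 called genes with the smallest p. Cybb, Nqo1, Cbr3 and Pfkp were named after their values were seen. Genes named as not called or as near copies are given for context. Alternatives were other scalings and filters, DESeq2 1.42.0, limma-voom (limma 3.58.1), a replicate block, a threshold of 0.01, leaving out mitochondrial genes together with the 20 most abundant ones, and omission of each library.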

Additional observations from a re-analysis of the deposited data

How the results depend on the processing

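The 10 members gave 5 increases and 0 decreases in each of the 16 alternatives, and the log2 fold changes of the 5 genes that rose ran from 0.74 to 0.88 (G6pdx), 1.08 to 1.24 (Pgd), 1.25 to 1.41 (Taldo1), 0.37 to 0.53 (Tkt) and 2.30 to 2.47 (Me1). The sign changed, without a call, for Pgls (-0.0261) and Rpe (-0.0390) with library totals alone, for Idh1 with no filter (0.0136), for Pgls without MNP sample 2 or control sample 2 (-0.0235 to 0.167 over all omissions of 1 library), and for Idh1 without MNP sample 1, control sample 1 or control sample 3 (-0.0593 to 0.0086). The log2 difference of the Idh1 to Idh2 ratio ran from -0.0161 (without control sample 2) to 0.0735, so its direction is not settled; the other 5 ratios kept their sign. Scaling and filters cannot change a ratio within a library, so only omissions were run for it.

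Of all genes, 1174 were higher and 1076 lower (1432 and 1254 with the replicate block), but 757 and 1941 with library totals alone, and 685 and 587 at a threshold of 0.01. Omission of 1 library gave 793 to 1241 higher and 672 (without MNP sample 2) to 1004 lower. The median log2 fold change of all genes was -0.01, and -0.16 with no filter. With library totals alone, other NADPH sources had 1 higher and 2 lower, isocitrate and citrate enzymes 1 higher, the glucose 6-phosphate list 1 higher and NADPH-using genes 3 lower. The stricter filter gave 2 lower NADPH-using genes. At a threshold of 0.01 the numbers higher were 1 (other NADPH sources), 1 (isocitrate and citrate) and 2 (glucose 6-phosphate). Omission of 1 library gave 1 to 2 higher and 1 to 2 lower for other NADPH sources, 1 to 3 higher for isocitrate and citrate enzymes and 2 to 5 higher for the glucose 6-phosphate list.

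Over all tested genes, deviations of samples of the same number were hardly correlated (r = 0.09, 0.03 and -0.02 for numbers 1 to 3). The replicate block was therefore left out of the main fit. Both groups still ran in the order 1, 2, 3 on the second principal component (32.6, -11.3 and -18.9 in MNP, 10.8, -5.30 and -7.93 in control samples). Mitochondrial shares rose in that order too (3.24%, 3.56% and 3.73% in MNP, 2.19%, 2.93% and 3.35% in control samples). Whether samples of the same number were handled together was not tested. With the block the members kept 5 increases and 0 decreases. Depth limits Rpia and Me1 most, since their control libraries held 134 to 155 and 73 to 103 counts.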
